A study of Mus musculus with 6 samples.

Results

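Glycolysis and the pentose phosphate pathway were followed gene by gene in immortalised mouse macrophages, over 32 genes that encode the transporters and enzymes from glucose entry to lactate export, the bisphosphoglycerate side branch and the pentose phosphate steps. The 32 genes were taken by symbol from a list of pathway genes, out of 54532 genes in the files, with no threshold on their values. This list and the further lists below were chosen with earlier results of these data known. Counts set beside the share of all genes are therefore descriptive. They were grouped into 22 steps, of which 7 are served by more than 1 of the listed genes. Isoforms of such a step are separate genes for the same reaction, and their levels were summed.

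Glycolysis splits glucose into pyruvate and yields ATP and NADH, and lactate dehydrogenase turns pyruvate into lactate so that NAD is restored and lactate can leave the cell with a proton. The pentose phosphate pathway branches off at glucose 6-phosphate. Its oxidative arm makes NADPH, which macrophages use for the respiratory burst, for glutathione reduction and for lipid synthesis, and its non-oxidative arm exchanges sugar phosphates with glycolysis. In macrophages inflammatory activation is known for a strong rise of glycolysis and lactate release, whereas IL-4 activation is known for greater use of mitochondrial oxidation.

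The 6 libraries were made from bone marrow-derived macrophages immortalised by retroviral transfer of v-raf and v-myc, and every culture, WT included, was under IL-4 (10 ng/ml, 24 hours). The WT group (3 libraries) came from wildtype mice and the 4-1BBL KO group (3 libraries) from mice deficient in 4-1BBL, a TNF family ligand encoded by Tnfsf9. The labels do not say how many animals or lines stand behind each genotype, nor whether a group's libraries stem from separate cultures, so the p-values measure a spread that may be technical. No cells without IL-4 were analysed here, and differences between genotypes cannot be told apart from differences between independently immortalised lines.

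Depth recovered from the deposited FPKM (fragments per kilobase of exon and per M, mega, of fragments) was 20.74 to 22.26 M assigned fragments in WT and 19.14 to 26.39 M in KO-labelled libraries. Tnfsf9 was at 14.6, 10.4 and 12.05 FPKM in WT libraries 1 to 3 and 10.7, 10.7 and 11.4 FPKM in KO-labelled libraries 1 to 3, so its transcript did not separate the groups (log2 fold change -0.15 ± 0.11 (SE), limma adjusted p = 0.273). What the knockout removes of the gene is not in the labels, and the group is therefore called KO-labelled. Each of 9 macrophage markers was above 1 FPKM in every library, among them Csf1r, with WT and KO-labelled means of 232 ± 1.22 and 134 ± 2.95 FPKM, and Cd68, with means of 426 ± 8.502 and 275 ± 17.8 FPKM. Adgre1 was at 11.8 ± 0.625 and 268 ± 6.07 FPKM (SD, n = 3 each). Of 18 markers of T cells, B cells, fibroblasts, granulocytes, dendritic cells and erythroid cells, 10 were at 0 in all libraries, and no such cell type reached a summed level above 0.588 FPKM. In bulk RNA fewer expressing cells and less RNA per cell cannot be told apart.

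Transcripts of most of the pathway's genes were lower in KO-labelled cells. The values here are of RNA only, and give no level of protein, enzyme activity or flux. Of the 32 genes, 31 passed the filter of a mean of at least 1 FPKM; Pfkfb2 did not. In limma on log2(FPKM + 1), with Benjamini-Hochberg adjustment over all 10843 tested genes and a threshold of 0.05, 20 of the 31 fell, 6 rose and 5 did not pass. Over all tested genes 30.2% fell and 30.6% rose, 60.8% in all, and the median log2 fold change was 0.0055, against -0.47 for the 31 genes. WT and KO-labelled values were fully separate for 26 of the 31, with KO-labelled below WT for 20 and above for 6, where 67.4% of all tested genes showed no overlap. The genes that rose were Slc2a3, Hk2, Hk3, Pfkfb3, Pfkfb4 and Taldo1, which encode a second glucose transporter, 2 hexokinases, a pair of enzymes that set fructose 2,6-bisphosphate, and transaldolase. The summed FPKM of the 32 genes made up 2.31 to 2.38% of all FPKM in WT and 1.70 to 1.73% in KO-labelled libraries.

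**Figure D1:**
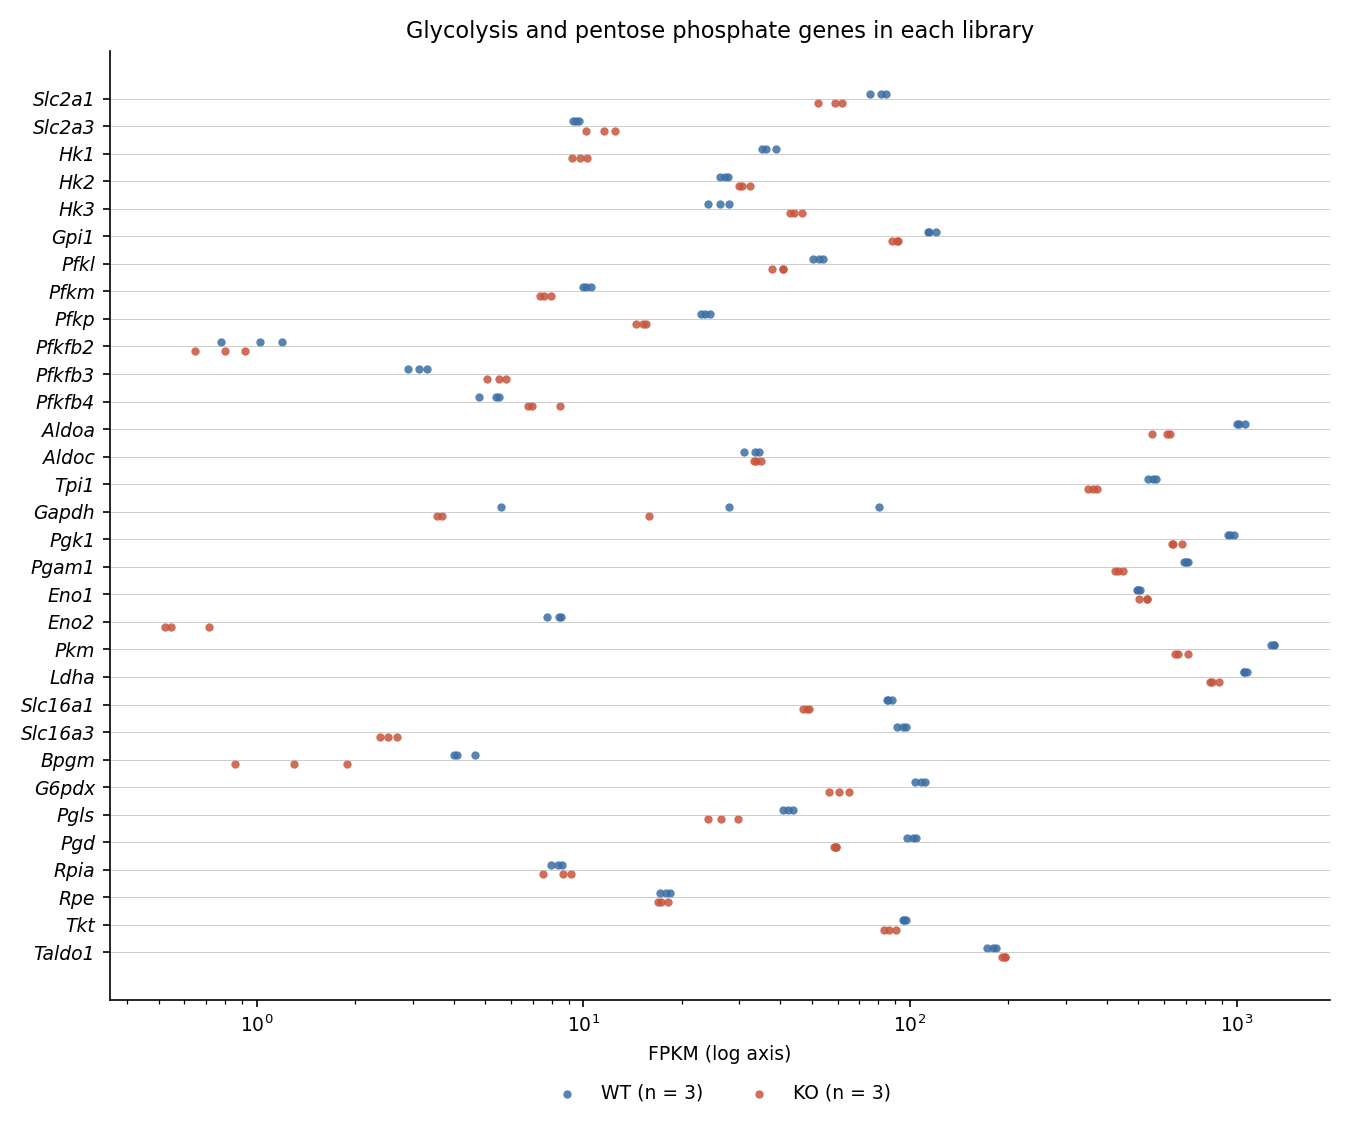
FPKM of each of the 32 genes in each library on a log axis, with WT libraries in blue and KO-labelled libraries in red (3 each), in pathway order from glucose entry to transaldolase. Slc16a3 moved farthest, from about 94.4 to 2.53 FPKM, and the Gapdh points spread widely within both groups.

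**Figure D2:**
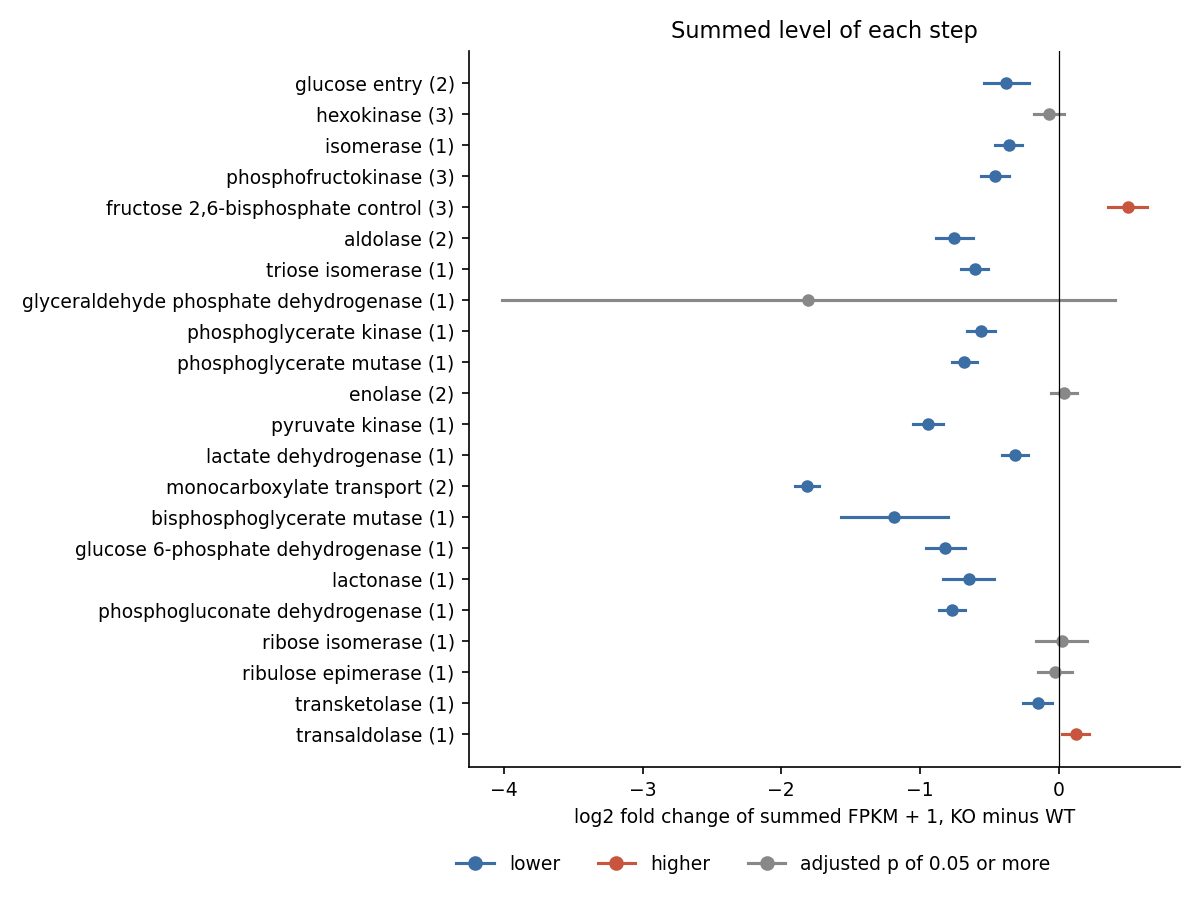
Log2 fold change of the summed FPKM of each of the 22 steps, KO minus WT, with the number of listed genes in brackets and bars for the 95% interval from limma. Of the 22 sums 15 were lower, 2 were higher and 5 (grey) had an adjusted p of 0.05 or more.

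By step, 15 of the 22 sums fell, 2 rose and 5 did not pass. The sums that rose were fructose 2,6-bisphosphate control and transaldolase. Those that did not pass were hexokinase, glyceraldehyde phosphate dehydrogenase, enolase, ribose isomerase and ribulose epimerase. Of the glycolysis and transport genes 15 of 23 tested fell and 5 rose, and of the 7 pentose phosphate genes 4 fell and 1 rose. Over all tested genes 30.2% fell and 30.6% rose, 60.8% in all. No count of genes or steps, here or below, was tested against these shares, and the pentose phosphate count rests on only 7 genes.

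The glucose entry transcripts fell in sum, and most were of Slc2a1, which encodes the widely expressed transporter GLUT1. Slc2a1 (chr4:119108711-119137983, mm10) was at 84.6, 81.4 and 75.2 FPKM in WT libraries 1 to 3 and 61.7, 52.3 and 59.04 FPKM in KO-labelled libraries 1 to 3. Every KO-labelled library was below every WT library, and the mean fell from 80.4 ± 4.76 to 57.7 ± 4.85 FPKM (SD, n = 3 each; log2 fold change -0.47 ± 0.07 (SE), limma adjusted p = 0.00128). Slc2a3, which encodes the high-affinity transporter GLUT3, was at 9.72, 9.30 and 9.48 FPKM in WT libraries 1 to 3 and 12.5, 11.6 and 10.1 FPKM in KO-labelled libraries 1 to 3. It rose by 1.20-fold on the mean without overlap (log2 fold change 0.23 ± 0.08 (SE), limma adjusted p = 0.033), a call that was lost with no filter on low values (adjusted p = 0.0596) and on leaving out any library except KO-labelled replicate 3 (adjusted p = 0.0662 to 0.0922). The sum of both fell from 89.9 ± 4.84 to 69.1 ± 5.17 FPKM (log2 fold change -0.38 ± 0.07 (SE), limma adjusted p = 0.00247). The share of Slc2a1 in the sum went from 89.4% ± 0.531 to 83.5% ± 1.73 (SD, n = 3), and it stayed the dominant isoform in every library.

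Hexokinase, which traps glucose as glucose 6-phosphate, changed in its isoforms more than in its total. Hk1, the broadly expressed isoform that binds mitochondria, was at 35.1, 36.3 and 38.8 FPKM in WT libraries 1 to 3 and 9.73, 10.3 and 9.20 FPKM in KO-labelled libraries 1 to 3. Its mean fell 3.78-fold with no overlap (log2 fold change -1.81 ± 0.06 (SE), limma adjusted p = 6.11e-07). Hk3, an isoform known from myeloid cells, was at 26.1, 24.01 and 27.8 FPKM in WT libraries 1 to 3 and 44.2, 43.02 and 46.6 FPKM in KO-labelled libraries 1 to 3. All KO-labelled libraries stood above all WT libraries, and Hk3 rose 1.72-fold (log2 fold change 0.76 ± 0.06 (SE), limma adjusted p = 5.59e-05). Hk2, the inducible isoform, was at 27.7, 26.2 and 27.1 FPKM in WT libraries 1 to 3 and 32.4, 29.9 and 30.6 FPKM in KO-labelled libraries 1 to 3, a smaller rise of 1.15-fold (log2 fold change 0.19 ± 0.05 (SE), limma adjusted p = 0.0126).

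The dominant hexokinase therefore differed between the groups, but which isoform led in KO-labelled cells depended on the measure. By FPKM it was Hk3. By recovered fragments, summed over the libraries and not divided by length, Hk2 (12120) was above Hk3 (10697) there. In WT Hk1 led by both measures. Hk1 held 39.5, 41.97 and 41.4% in WT libraries and 11.3, 12.4 and 10.6% in KO-labelled libraries of the summed hexokinase FPKM, and Hk3 held 29.3, 27.8 and 29.7% in WT libraries and 51.2, 51.7 and 53.9% in KO-labelled libraries. Hk1 was the highest of the 3 in each WT library and the lowest in each KO-labelled library. An exact two-sided permutation test of each share gave p = 0.1, the smallest that 3 against 3 libraries allow. The summed hexokinase level was at 88.96, 86.4 and 93.7 FPKM in WT libraries 1 to 3 and 86.3, 83.2 and 86.4 FPKM in KO-labelled libraries 1 to 3. WT library 2 and KO-labelled library 3 were equal to 3 digits, and the difference did not pass (log2 fold change -0.07 ± 0.04 (SE), limma adjusted p = 0.209, 95% interval -0.18 to 0.04). When fragments were summed without division by length and tested with voom in limma, the sum fell by 0.40 on the log2 scale (adjusted p = 9.42e-07), where Hk1 weighs more by construction, with an exon length of 8532 bases against 5969 for Hk2 and 3682 for Hk3.

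**Figure D3:**
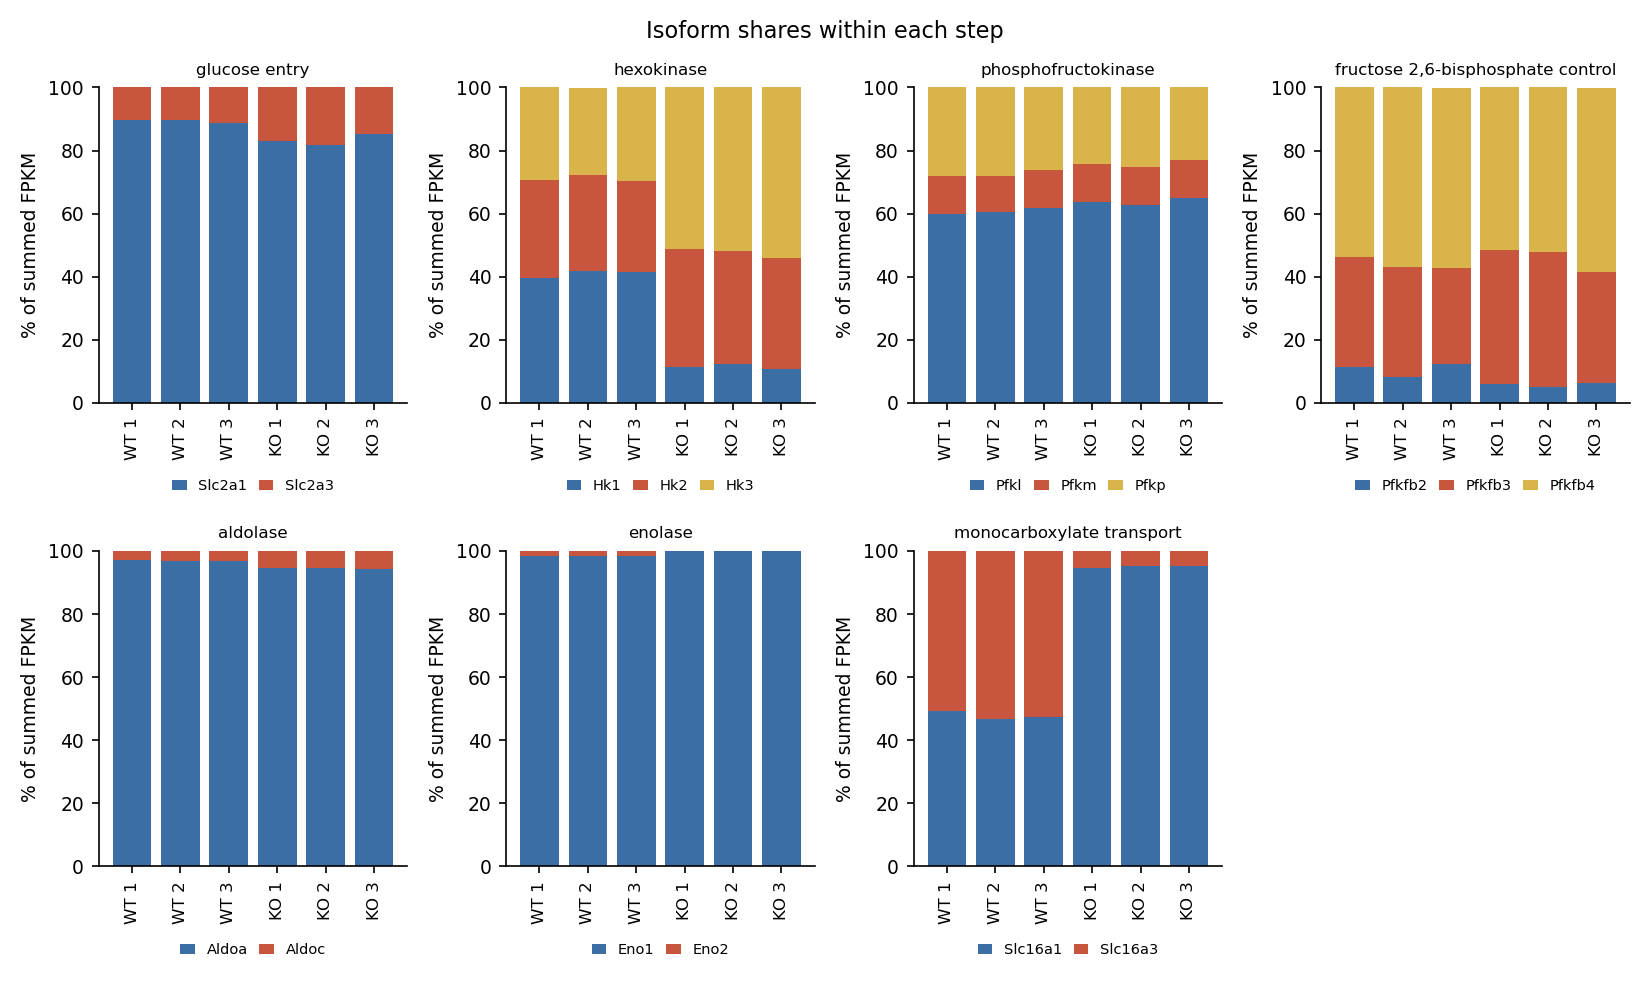
Share of each isoform in the summed FPKM of its step, as stacked bars in % for WT libraries 1 to 3 and KO-labelled libraries 1 to 3, for the 7 steps with more than 1 listed gene. By FPKM the highest isoform changed from Hk1 to Hk3 for hexokinase and from Slc16a3 to Slc16a1 for monocarboxylate transport. In the other 5 steps it was the same in both groups. By recovered fragments, not divided by length, the hexokinase change was from Hk1 to Hk2. Fructose 2,6-bisphosphate control then also changed, from Pfkfb4 to Pfkfb3.

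The next steps lead to fructose 1,6-bisphosphate, the committed point of glycolysis. Gpi1, which interconverts glucose 6-phosphate and fructose 6-phosphate, fell from 116 ± 3.41 to 90.2 ± 1.91 FPKM (log2 fold change -0.36 ± 0.04 (SE), limma adjusted p = 2.44e-04). The phosphofructokinase sum fell 1.38-fold, from 86.3 ± 2.03 to 62.6 ± 2.06 FPKM (log2 fold change -0.46 ± 0.04 (SE), limma adjusted p = 9.55e-05), and all 3 of its genes fell. Pfkl, the liver-type gene, was dominant in every library with 60.8% ± 0.961 to 63.7% ± 1.11 of the sum (WT to KO-labelled, SD, n = 3). Pfkp, the platelet-type gene, was at 23.6, 24.3 and 22.9 FPKM in WT libraries 1 to 3 and 15.5, 15.2 and 14.5 FPKM in KO-labelled libraries 1 to 3. It showed no overlap between groups and fell 1.56-fold (log2 fold change -0.61 ± 0.05 (SE), limma adjusted p = 4.31e-05); 5.6% of its exon length overlaps Pitrm1 on the opposite strand, at 24.5 and 43.2 FPKM. Pfkm, the muscle-type gene, fell from 10.2 ± 0.284 to 7.61 ± 0.303 FPKM (log2 fold change -0.38 ± 0.05 (SE), limma adjusted p = 8.09e-04).

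Summed transcripts of the enzymes that make and break fructose 2,6-bisphosphate, an activator of phosphofructokinase, went the other way. Pfkfb3, whose product strongly favours synthesis, was at 3.13, 3.33 and 2.91 FPKM in WT libraries 1 to 3 and 5.78, 5.53 and 5.07 FPKM in KO-labelled libraries 1 to 3. Pfkfb4 was at 4.79, 5.41 and 5.51 FPKM in WT libraries 1 to 3 and 6.96, 6.76 and 8.46 FPKM in KO-labelled libraries 1 to 3. Both were higher in every KO-labelled library than in any WT library, by 1.75-fold for Pfkfb3 (log2 fold change 0.65 ± 0.07 (SE), limma adjusted p = 2.86e-04) and by 1.41-fold for Pfkfb4 (log2 fold change 0.42 ± 0.09 (SE), limma adjusted p = 0.00675). Pfkfb2, the form known best from heart, was at 0.997 ± 0.210 and 0.788 ± 0.139 FPKM, with overlapping libraries, and was not tested. The sum rose from 9.36 ± 0.362 to 13.6 ± 0.765 FPKM (log2 fold change 0.50 ± 0.06 (SE), limma adjusted p = 3.41e-04). Because it adds genes for making and breaking the compound, it is not the level of a single reaction. Pfkfb4 held the largest share of the summed FPKM in both groups, 55.9% ± 2.03 to 54.1% ± 3.88, and that share overlapped between them (exact two-sided permutation p = 0.5). By recovered fragments, not divided by length, Pfkfb3 was the higher in KO-labelled cells (2710 against 2333 for Pfkfb4). In WT it was the lower (1518 against 1644).

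The transcript levels of aldolase and triose phosphate isomerase, which split the sugar and equilibrate the trioses, were both lower. Aldoa was at 1017, 999.7 and 1063 FPKM in WT libraries 1 to 3 and 627, 611 and 549 FPKM in KO-labelled libraries 1 to 3. The groups were far apart, and Aldoa fell 1.72-fold (log2 fold change -0.79 ± 0.06 (SE), limma adjusted p = 3.05e-05). Aldoc, the brain-type aldolase, was at 31.1, 33.5 and 34.5 FPKM in WT libraries 1 to 3 and 35.01, 33.8 and 33.3 FPKM in KO-labelled libraries 1 to 3, with overlapping groups and no call (log2 fold change 0.04 ± 0.05 (SE), limma adjusted p = 0.505, 95% interval -0.08 to 0.17), except after rescaling to TPM (adjusted p = 0.0427). Aldoa held 96.9% ± 0.140 to 94.6% ± 0.262 of the aldolase sum, which fell from 1059.5 ± 33.4 to 629.7 ± 41.9 FPKM (log2 fold change -0.75 ± 0.06 (SE), limma adjusted p = 3.43e-05). A second gene annotated as Aldoa was at 0.996 to 2.36 FPKM and was not used. Tpi1 was at 536, 556 and 566 FPKM in WT libraries 1 to 3 and 372, 364 and 352 FPKM in KO-labelled libraries 1 to 3 and fell 1.52-fold without overlap (log2 fold change -0.61 ± 0.04 (SE), limma adjusted p = 1.83e-05).

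Glyceraldehyde phosphate dehydrogenase, the NADH-forming step, could not be read from Gapdh alone. Gapdh was at 80.3, 5.59 and 27.8 FPKM in WT libraries 1 to 3 and 3.69, 3.56 and 15.9 FPKM in KO-labelled libraries 1 to 3. These values overlapped and varied many-fold within each group (log2 fold change -1.80 ± 0.93 (SE), limma adjusted p = 0.135, 95% interval -4.02 to 0.41), and without WT replicate 2 the log2 fold change was -2.76 with an adjusted p of 0.0197. Such levels stand far below those of the neighbouring steps per length, such as Tpi1 and Pgk1. BLAST against the annotated transcripts found 101 near-identical copies of Gapdh (identity of 95% or more along 80% or more of the shorter transcript), of which 92 had a value above 0. The copy with the highest level, the processed pseudogene Gm13394 (chr2:28933610-28934609), was at 1558, 1622 and 1613 FPKM in WT libraries 1 to 3 and 4.36, 3.61 and 2.82 FPKM in KO-labelled libraries 1 to 3.

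Gapdh and Gm13394 are nearly the same in sequence, as a stretch of 120 bases from each shows. The stretches below run from base 364 to base 483 of the longest annotated Gapdh coding sequence, counted from 1 at its first base. That coding sequence has 1077 bases, and positions are those of this annotated form only. The capital marks the only difference in 999 aligned bases, A424C. The sequences are those of GENCODE M21 transcripts on mm10.
Gapdh (chromosome 6): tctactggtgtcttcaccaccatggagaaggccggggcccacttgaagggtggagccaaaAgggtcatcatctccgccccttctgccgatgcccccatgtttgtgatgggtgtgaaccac
Gm13394 (chromosome 2): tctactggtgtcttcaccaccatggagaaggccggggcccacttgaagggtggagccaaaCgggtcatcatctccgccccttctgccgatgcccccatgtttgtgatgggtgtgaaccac

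Gapdh and its copies together gave 1941, 1692 and 1771 fragments per M in WT libraries and 138, 102 and 119 in KO-labelled libraries. All WT libraries lay far above all KO-labelled libraries, and the family fell 15.1-fold (log2 fold change -3.88 ± 0.11 (SE), limma adjusted p = 2.63e-07). Yet the KO-labelled family total was itself far below that of Tpi1 with its copy, at 1030, 1007 and 979 fragments per M. Most WT fragments of the family were assigned to Gm13394, so the family sum does not give a readable level of this step either. Gapdh itself held between 1.36% and 55.3% of its family's fragments in single libraries. Another processed pseudogene, Gm7336, was at 5.85, 5.83 and 4.92 FPKM in WT libraries 1 to 3 and 64.1, 38.5 and 7.13 FPKM in KO-labelled libraries 1 to 3. It rose, with values spread within the KO-labelled group (log2 fold change 2.08 ± 0.69 (SE), limma adjusted p = 0.0353), and the pseudogene Gm5559 was at 13.1 ± 0.0706 and 12.9 ± 0.610 FPKM (log2 fold change -0.03 ± 0.05 (SE), limma adjusted p = 0.667). How the counting treated reads that match several places is not given in the sources used here, and the part this plays in the Gapdh values was not tested.

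Phosphoglycerate kinase and mutase, the ATP-forming step and the shift of the phosphate, were lower in transcript level. Pgk1 was at 942, 955 and 984 FPKM in WT libraries 1 to 3 and 681, 639 and 633 FPKM in KO-labelled libraries 1 to 3. Pgam1 was at 689.7, 702 and 709 FPKM in WT libraries 1 to 3 and 449, 425 and 433 FPKM in KO-labelled libraries 1 to 3. Neither gene overlapped between the groups, and they fell 1.47-fold (log2 fold change -0.56 ± 0.04 (SE), limma adjusted p = 3.75e-05) and 1.61-fold (log2 fold change -0.68 ± 0.04 (SE), limma adjusted p = 6.75e-06). Both have near-identical copies, but each held at least 98.8% of the fragments of its family in every library.

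Enolase, which forms phosphoenolpyruvate, gave different readings with and without its copies. Eno1, the ubiquitous isoform (chr4:150236721-150248879), was at 506, 497 and 496 FPKM in WT libraries 1 to 3 and 532, 532 and 502 FPKM in KO-labelled libraries 1 to 3. The groups overlapped and the difference did not pass (log2 fold change 0.06 ± 0.04 (SE), limma adjusted p = 0.213, 95% interval -0.03 to 0.15), although Eno1 was called higher with values rescaled to TPM (adjusted p = 0.0114), quantile normalized (adjusted p = 0.00631) or without KO-labelled replicate 3 (adjusted p = 0.0280). Eno2, the neuronal isoform, was at 7.72, 8.40 and 8.51 FPKM in WT libraries 1 to 3 and 0.524, 0.712 and 0.544 FPKM in KO-labelled libraries 1 to 3. It was low in all libraries next to Eno1 per length, did not overlap, and fell 13.8-fold (log2 fold change -2.53 ± 0.08 (SE), limma adjusted p = 5.54e-07). Eno1 held 98.4% ± 0.0989 to 99.9% ± 0.0182 of the enolase sum, which did not pass (508 ± 4.86 and 522 ± 17.4 FPKM; log2 fold change 0.04 ± 0.04 (SE), limma adjusted p = 0.411).

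A pair of near-identical genes stood at the level of Eno1 in WT libraries and far below it in KO-labelled ones. The processed pseudogene Gm4735 (chr2:80837141-80838442) was at 609.9, 608 and 589 FPKM in WT libraries 1 to 3 and 20.6, 13.96 and 16.5 FPKM in KO-labelled libraries 1 to 3. Eno1b, annotated as protein coding, was at 503, 514 and 516 FPKM in WT libraries 1 to 3 and 38.2, 35.3 and 48.7 FPKM in KO-labelled libraries 1 to 3. Both fell with wide gaps between the groups, 35.4-fold for Gm4735 (log2 fold change -5.08 ± 0.12 (SE), limma adjusted p = 1.35e-07) and 12.5-fold for Eno1b (log2 fold change -3.63 ± 0.11 (SE), limma adjusted p = 3.79e-07).

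Gm4735 differs from the 1302 coding bases of Eno1 at 5 positions. The stretches below hold 2 of them, T726C and T816G, in capitals, and run from base 697 to base 816 of the Eno1 coding sequence, counted from 1 at its first base. They are shown for how alike the transcripts are.
Eno1 (chromosome 4): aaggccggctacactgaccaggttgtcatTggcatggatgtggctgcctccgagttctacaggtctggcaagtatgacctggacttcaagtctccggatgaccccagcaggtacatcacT
Gm4735 (chromosome 2): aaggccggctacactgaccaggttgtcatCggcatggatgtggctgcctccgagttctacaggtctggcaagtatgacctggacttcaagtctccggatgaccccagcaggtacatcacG

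Eno1 and its 4 copies together gave 4481, 4457 and 4423 fragments per M in WT libraries and 2959.8, 2948 and 2814 in KO-labelled libraries. The groups did not overlap, and the family fell 1.53-fold (log2 fold change -0.61 ± 0.04 (SE), limma adjusted p = 1.02e-05). Eno1 held 60.4% of the family's fragments in WT and 96.6% in KO-labelled libraries. With the copies added the enolase sum had a log2 fold change of -0.63 (adjusted p = 9.09e-06), and with the further isoforms Eno1b, Eno3 and Eno4 it had -0.84 (adjusted p = 1.58e-06), against 0.04 for Eno1 and Eno2 as deposited. Whether fragments of the copies came from Eno1 transcripts was not tested.

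**Figure D4:**
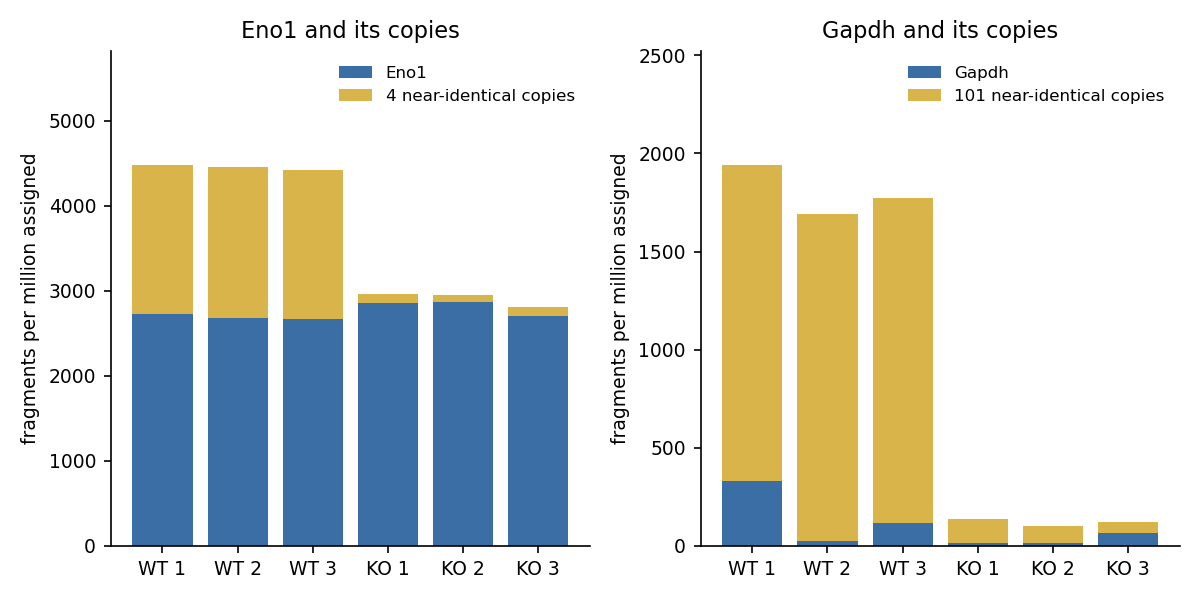
Fragments per M (mega) assigned fragments for Eno1 and its 4 near-identical copies (left) and for Gapdh and its 101 copies (right), stacked for WT libraries 1 to 3 and KO-labelled libraries 1 to 3. Eno1 alone was similar in height in all libraries, whereas the Eno1 family went from 4454 to 2907 and the Gapdh family from 1801 to 120 on average.

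Pyruvate kinase and lactate dehydrogenase close the path to lactate. Pkm, whose alternatively spliced transcripts cannot be separated in values per gene, was at 1273, 1299.6 and 1304 FPKM in WT libraries 1 to 3 and 709, 662 and 646 FPKM in KO-labelled libraries 1 to 3. It fell 1.92-fold with no overlap (log2 fold change -0.94 ± 0.05 (SE), limma adjusted p = 3.51e-06). Ldha was at 1055, 1053 and 1075 FPKM in WT libraries 1 to 3 and 843, 831 and 883 FPKM in KO-labelled libraries 1 to 3. It was lower in every KO-labelled library and fell 1.24-fold (log2 fold change -0.32 ± 0.04 (SE), limma adjusted p = 4.06e-04), although quantile normalization gave 0.0038 (adjusted p = 0.932). Pkm and Ldha held at least 99.0% of their families' fragments. In Pkm 15.3% of the exon length overlaps Gm49759, a gene on the same strand at 10.5 and 7.48 FPKM.

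A lactate exporter gene showed the largest change among the 31 genes tested. Slc16a3 (chr11:120948480-120960868), which encodes the monocarboxylate transporter MCT4 known for lactate export from glycolytic cells, was at 90.9, 97.3 and 94.95 FPKM in WT libraries 1 to 3 and 2.69, 2.51 and 2.39 FPKM in KO-labelled libraries 1 to 3. No other listed gene had groups so far apart, and it fell 37.3-fold (log2 fold change -4.76 ± 0.05 (SE), limma adjusted p = 6.85e-09). Slc16a1, which encodes MCT1, a transporter that moves lactate in either direction, was at 88.2, 85.6 and 85.05 FPKM in WT libraries 1 to 3 and 46.9, 49.1 and 48.4 FPKM in KO-labelled libraries 1 to 3. It also fell without overlap, by 1.79-fold (log2 fold change -0.83 ± 0.04 (SE), limma adjusted p = 3.36e-06).

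The monocarboxylate transport sum fell from 181 ± 1.98 to 50.6 ± 1.03 FPKM (log2 fold change -1.81 ± 0.04 (SE), limma adjusted p = 5.92e-08), the largest drop of any step that passed. Slc16a3 held 50.8, 53.2 and 52.8% in WT libraries and 5.44, 4.87 and 4.70% in KO-labelled libraries of that sum. It was the higher of the pair in each WT library and by far the lower in each KO-labelled library (exact two-sided permutation p = 0.1, the smallest possible). Bpgm, which makes 2,3-bisphosphoglycerate beside the main path, fell from 4.26 ± 0.349 to 1.35 ± 0.517 FPKM (log2 fold change -1.18 ± 0.16 (SE), limma adjusted p = 6.61e-04).

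In the oxidative arm of the pentose phosphate pathway, the transcripts of each of its 3 enzymes were lower. G6pdx, the NADPH-forming entry enzyme, was at 108, 104 and 111 FPKM in WT libraries 1 to 3 and 60.46, 64.9 and 56.6 FPKM in KO-labelled libraries 1 to 3. Pgd, the other NADPH-forming enzyme, was at 98.1, 102 and 104 FPKM in WT libraries 1 to 3 and 59.3, 59.2 and 58.6 FPKM in KO-labelled libraries 1 to 3. Neither overlapped, and they fell 1.77-fold (log2 fold change -0.82 ± 0.06 (SE), limma adjusted p = 2.53e-05) and 1.72-fold (log2 fold change -0.77 ± 0.04 (SE), limma adjusted p = 4.48e-06). Pgls, the lactonase between them, fell 1.58-fold, from 42.3 ± 1.42 to 26.7 ± 2.83 FPKM (log2 fold change -0.65 ± 0.08 (SE), limma adjusted p = 3.35e-04). Of the exon length of G6pdx 13.6% overlaps Ikbkg on the opposite strand (6.02 and 5.03 FPKM), and of that of Pgls 20.6% overlaps Fam129c on the same strand (1.37 and 0.768 FPKM), both far lower in level.

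The ribose and ribulose phosphate enzymes of the non-oxidative arm did not pass. Rpia, ribose 5-phosphate isomerase, was at 8.30 ± 0.317 and 8.46 ± 0.830 FPKM (log2 fold change 0.02 ± 0.08 (SE), limma adjusted p = 0.831, 95% interval -0.16 to 0.20). Rpe, the ribulose phosphate epimerase, was at 17.8 ± 0.650 and 17.4 ± 0.660 FPKM (log2 fold change -0.03 ± 0.05 (SE), limma adjusted p = 0.657, 95% interval -0.15 to 0.09). Both had overlapping libraries, and 17.9% of the exon length of Rpe overlaps Kansl1l on the opposite strand.

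Transketolase and transaldolase, which pass carbon back to glycolysis, were called in opposite directions by small amounts. Tkt was at 96.03, 95.3 and 97.4 FPKM in WT libraries 1 to 3 and 90.3, 86.1 and 83.2 FPKM in KO-labelled libraries 1 to 3 and fell 1.11-fold (log2 fold change -0.15 ± 0.04 (SE), limma adjusted p = 0.0187). Taldo1 was at 172, 180.0 and 183 FPKM in WT libraries 1 to 3 and 196, 191 and 195 FPKM in KO-labelled libraries 1 to 3 and rose 1.09-fold (log2 fold change 0.12 ± 0.04 (SE), limma adjusted p = 0.0334). Neither overlapped between groups, but both calls were near the threshold. Tkt was not called with values rescaled to TPM (adjusted p = 0.234) or quantile normalized (adjusted p = 0.529), nor without WT replicate 1, WT replicate 3 or KO-labelled replicate 2 (adjusted p = 0.0523 to 0.0637). Taldo1 was not called with no filter on low values (adjusted p = 0.0515), nor without WT replicate 1 or 2 or KO-labelled replicate 1 or 2 (adjusted p = 0.0614 to 0.112).

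Of the 23 tested genes without a near-identical copy 14 fell and 6 rose, where 30.2% of all tested genes fell and 30.6% rose. Of the 8 with a copy 6 fell and Gapdh and Eno1 did not pass. With the copies' fragments added to each of the 8, all of them fell and the list counted 22 lower and 6 higher. Among these, the Gapdh family sum remains hard to read.

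Genes of the same pathways outside the 32 were counted from 3 further lists of 73 genes. Of 49 tested 27 fell, 13 rose and 9 did not pass, beside 30.2% and 30.6% of all tested genes. Among other isoforms, 20 of 32 were below the filter, and 4 of the 12 tested rose and 4 fell. Slc2a6, a hexose transporter known from macrophages, rose from 30.2 ± 0.919 to 38.7 ± 2.90 FPKM (log2 fold change 0.35 ± 0.06 (SE), limma adjusted p = 0.00267). With it and 6 more transporters added, the glucose entry sum had a log2 fold change of -0.16 (adjusted p = 0.0480) and its groups overlapped. Eno3, the muscle enolase, fell from 33.4 ± 0.824 to 24.3 ± 1.68 FPKM (log2 fold change -0.45 ± 0.06 (SE), limma adjusted p = 5.51e-04), and Eno4, an enolase known from sperm, fell from 1.85 ± 0.0873 to 0.524 ± 0.169 FPKM (log2 fold change -0.91 ± 0.12 (SE), limma adjusted p = 4.82e-04).

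Several of these genes bear on the pentose phosphates. Rbks, ribokinase, rose 2.11-fold, from 3.44 ± 0.641 to 7.25 ± 0.603 FPKM (log2 fold change 0.90 ± 0.11 (SE), limma adjusted p = 4.60e-04). Tigar, a phosphatase that lowers fructose 2,6-bisphosphate, rose 1.35-fold, from 11.01 ± 0.520 to 14.9 ± 0.539 FPKM (log2 fold change 0.41 ± 0.06 (SE), limma adjusted p = 6.83e-04). H6pd, the hexose 6-phosphate dehydrogenase of the endoplasmic reticulum, had 9.95 ± 0.683 and 10.96 ± 0.396 FPKM without a call (log2 fold change 0.13 ± 0.06 (SE), limma adjusted p = 0.12).

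Genes for enzymes of the branches that leave glycolysis mostly fell, 15 of 23 tested against 3 that rose. Among all tested genes 30.2% fell and 30.6% rose. Me1, the cytosolic malic enzyme that forms NADPH, was at 96.5, 101 and 98.7 FPKM in WT libraries 1 to 3 and 4.74, 4.26 and 3.99 FPKM in KO-labelled libraries 1 to 3. The groups were far apart, and Me1 fell 22.8-fold (log2 fold change -4.23 ± 0.06 (SE), limma adjusted p = 1.45e-08). Akr1b3, aldose reductase, fell 13.98-fold, from 198 ± 3.20 to 14.1 ± 0.350 FPKM (log2 fold change -3.71 ± 0.04 (SE), limma adjusted p = 6.85e-09). Psph, the last enzyme of serine synthesis, fell 4.33-fold, from 24.2 ± 0.689 to 5.59 ± 0.116 FPKM (log2 fold change -1.93 ± 0.05 (SE), limma adjusted p = 1.58e-07). Akr1b3 and Me1 have near-identical copies, so their division of reads is uncertain. The highest value of any copy was 19.8 FPKM for Akr1b3 (Gm12138, WT library 2) and 1.78 FPKM for Me1 (Gm7329, WT library 1). In Psph 10.4% of the exon length overlaps Cct6a on the opposite strand, at 134 and 160 FPKM.

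Of 14 regulators and transporter partners tested, 8 fell and 6 rose, where 30.2% of all tested genes fell and 30.6% rose. Emb, which encodes embigin, a membrane partner of MCT1-type transporters, was at 0.203, 0.133 and 0.117 FPKM in WT libraries 1 to 3 and 15.1, 16.2 and 16.6 FPKM in KO-labelled libraries 1 to 3. It rose in every KO-labelled library (log2 fold change 3.88 ± 0.07 (SE), limma adjusted p = 4.29e-08), while a transcript stretch it shares with Rnf7 leaves its reads less certain. That stretch spans 326 bases, against an Emb exon length of 6906. Rnf7 was at 54.2, 51.0 and 54.5 FPKM in WT libraries 1 to 3 and 121, 124 and 125 FPKM in KO-labelled libraries 1 to 3. Bsg, the basigin partner of MCT1 and MCT4, fell from 248 ± 10.9 to 161 ± 16.2 FPKM (log2 fold change -0.62 ± 0.08 (SE), limma adjusted p = 3.83e-04). Bsg, Hif1a and Mlxip were named after their values were seen. Bach1 and Arrdc4 of the same list changed more than any of them, and both rose. Their log2 fold changes were 1.88 ± 0.05 (SE) and 1.74 ± 0.09 (SE), with limma adjusted p = 2.89e-07 and 4.07e-06.

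Among the transcription factors of that list the directions differed. Mlxip, which encodes the glucose-sensing factor MondoA, rose from 6.97 ± 0.434 to 11.5 ± 0.384 FPKM (log2 fold change 0.65 ± 0.06 (SE), limma adjusted p = 1.01e-04). Mycn was at 283, 283 and 275 FPKM in WT libraries 1 to 3 and 0.0115, 0.0154 and 0.0634 FPKM in KO-labelled libraries 1 to 3. Myc was at 13.8, 12.8 and 10.2 FPKM in WT libraries 1 to 3 and 0.851, 1.55 and 0.904 FPKM in KO-labelled libraries 1 to 3. Both fell (log2 fold change -8.09 ± 0.05 (SE), limma adjusted p = 8.65e-10 and log2 fold change -2.66 ± 0.16 (SE), limma adjusted p = 8.63e-06), as did Hif1a, from 45.6 ± 0.388 to 19.2 ± 0.772 FPKM (log2 fold change -1.21 ± 0.05 (SE), limma adjusted p = 1.04e-06). All cells had been immortalised with v-myc, and the part of any of these genes in the levels of the 32 was not tested.

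Promoter windows of 31 of the 32 genes, all but Slc2a3, were searched on both strands (250 bases before to 50 after the start, RefSeq, GRCm38.p6). Where a gene had several windows, only the first listed was used. The search was for ACGTG, a form of the core of the hypoxia response element, and for CACGTG, the E-box. Other forms of the core were not searched. Each E-box also holds ACGTG on both strands and so counts as 2 ACGTG matches. ACGTG was in 14 windows (45.2%), against 19.7% of 27025 genes with a window and 27.5% of the 7960 tested genes matched. The E-box was in 4 windows (12.9%), against 7.2% and 10.9%. By call, ACGTG was in 8 of 20 genes that fell, 3 of the 5 matched that rose and 2 of the 5 that did not pass. A match is a description of letters, and no binding was measured.

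The windows of the lactate genes are shown because lactate formation and export held the largest drop and the window with the most matches. Capitals mark ACGTG or CACGTG on either strand. Ldha had 5 ACGTG matches with 2 E-boxes, Slc16a1 had 3 with 1 E-box, and Slc16a3 had 2 and no E-box.
Slc16a3 (chr11:120948817-120949116, forward strand): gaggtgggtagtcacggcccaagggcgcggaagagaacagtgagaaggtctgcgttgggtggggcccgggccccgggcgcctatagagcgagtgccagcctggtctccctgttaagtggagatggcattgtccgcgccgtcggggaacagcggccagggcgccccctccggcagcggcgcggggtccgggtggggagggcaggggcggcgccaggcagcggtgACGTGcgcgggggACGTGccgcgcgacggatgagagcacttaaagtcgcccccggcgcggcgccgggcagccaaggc
Slc16a1 (chr3:104638414-104638713, forward strand): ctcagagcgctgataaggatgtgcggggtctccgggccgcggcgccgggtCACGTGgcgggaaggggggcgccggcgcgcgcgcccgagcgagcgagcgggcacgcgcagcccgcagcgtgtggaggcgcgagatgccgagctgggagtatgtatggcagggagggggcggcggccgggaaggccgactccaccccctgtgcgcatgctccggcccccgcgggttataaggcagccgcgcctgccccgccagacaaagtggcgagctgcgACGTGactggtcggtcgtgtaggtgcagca
Ldha (chr7:46845554-46845853, forward strand): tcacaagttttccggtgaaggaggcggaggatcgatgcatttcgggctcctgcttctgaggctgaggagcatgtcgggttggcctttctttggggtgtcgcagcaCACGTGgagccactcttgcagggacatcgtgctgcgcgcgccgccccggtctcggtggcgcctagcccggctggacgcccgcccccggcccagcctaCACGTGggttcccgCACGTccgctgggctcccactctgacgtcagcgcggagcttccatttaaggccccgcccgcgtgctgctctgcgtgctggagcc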

How the data were processed

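Poly(A)-selected RNA of 6 libraries (3 WT, 3 KO-labelled) was sequenced. The deposited values are FPKM per gene; the submitters' processing notes name the mm10 build, HISAT2 (2.0.5) and featureCounts (1.5.0-p3). For the annotation release, strand setting and multi-mapping reads, the choice is not given in the sources used here. Symbols, positions and exon lengths came from GENCODE M21 (54495 of 54532 identifiers matched). FPKM times exon length gave fragment numbers whole within 0.1 for 97.9 to 98.0% of values up to 200 fragments, hence the depths of 19.14 to 26.39 M (mega).

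The 10843 genes whose mean reached 1 FPKM were fitted on log2(FPKM + 1) with limma-trend (limma 3.58.1, R 4.3.3), as KO minus WT, with Benjamini-Hochberg adjustment. Log2 fold changes use that scale and so understate changes of low genes; folds are ratios of mean FPKM. For steps, members were replaced by their summed FPKM in the same fit. The script was tested on simulated data. Copies were found with BLAST+ 2.17.0+ (at least 95% identity, 80% of the shorter transcript, 150 bases). Fragments were counted without molecular identifiers.

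The members and lists were chosen with earlier results of these data known. Genes named are all 32 members, Tnfsf9 and the 3 largest called changes in each further list. Other isoforms with a mean above 10 FPKM and copies that share reads with a member are also named. Bsg, Hif1a and Mlxip were added after their values were seen, and Bach1 and Arrdc4 as larger changes of the same list. Alternatives covered the pseudocount, filter, scaling, voom on recovered fragments, a replicate block, omission of each library, and copies or further isoforms added. A macrophage marker of the list is not reported here.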

Additional observations from a re-analysis of the deposited data

How the results depend on the processing

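Of 941 values over 65 results under the alternatives and without single libraries, 886 were rated the same. For single genes and step sums, this meant the same direction and the same side of the threshold. For counts it meant a count within a set ratio of the main one, so single genes could still gain or lose a call. For isoform shares it meant a shift smaller than the SD within groups. Members called ranged from 4 to 8 higher and from 18 to 22 lower over all settings that kept the whole list. Only 1 step sum was called higher, against 2, with no filter on low values and with the replicate block, and 1 to 2 on leaving out single libraries; the one lost was transaldolase. The directions that turned were those of Eno1 (-0.61) and the enolase sum (-0.63) with copies added, a choice made after seeing the data, of the enolase sum with further isoforms (-0.84), of Ldha (0.0038), the lactate dehydrogenase sum (0.0078), Rpia (-0.0071) and the hexokinase sum (0.052) under quantile normalization, and of Rpe (0.063) and the hexokinase sum (0.023) after rescaling to TPM. Rpia ranged from -0.033 to 0.092 without single libraries. Eno1 was called higher after rescaling to TPM (adjusted p = 0.0114), under quantile normalization (0.00631) and without KO-labelled replicate 3 (0.0280), and Aldoc after rescaling to TPM (0.0427). The causes were not tested. As shares of recovered fragments instead of FPKM, the KO minus WT differences were -9.36 points for Slc2a1, -35.8 for Hk1, -2.55 for Aldoa, 1.32 for Eno1 and -50.8 for Slc16a3; with further isoforms they were -12.7 for Slc2a1, -27.8 for Hk1 and 41.3 for Eno1. Same-numbered libraries did not deviate together (correlations of -0.034, 0.047 and -0.032 over genes for numbers 1 to 3), so the replicate block shares only a number; with it 5 members were called higher and 19 lower, without Tkt (adjusted p = 0.0512) and Taldo1 (0.0819). Over the 3 libraries of a group, recovered fragments were fewest for Eno2 (180) and Bpgm (330) in KO-labelled cells and for Pfkfb2 (468 in WT, 373 in KO-labelled).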
